A study of Homo sapiens with 3 samples.

Results

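The genes of YAP, TAZ, the TEAD factors and 4 of their best-known targets were examined for occupancy by PHF13 and EZH2 in PANC-1 cells. These are YAP1, WWTR1 (the gene of TAZ), TEAD1, TEAD2, TEAD3, TEAD4, CCN1, CCN2, AMOTL2 and ANKRD1. They were chosen by name from the pathway, with no limit set on their peaks but with earlier results of these data known. They are 10 of 20163 protein-coding genes. Each was found once in the annotation (GENCODE release 44 on GRCh37, hg19). A peak was counted as near a gene when any base of it lay within 5 kb of an annotated transcription start site (TSS) or inside the gene body. All peaks within 100 kb of the gene body were also collected, and those that were not near are called distal.

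YAP1 and TAZ are co-activators that bind no DNA themselves. When Hippo kinases phosphorylate them they stay in the cytoplasm, and without that phosphorylation they enter the nucleus and are brought to DNA by TEAD1 to TEAD4. TEAD sites often lie in enhancers that also hold a site of AP-1, the FOS and JUN dimers, and the pathway drives growth and matrix genes in many carcinomas, those of the pancreas included. EZH2 is the methyltransferase of Polycomb repressive complex 2, which places the repressive mark H3K27me3. PHF13 is a PHD-finger protein that reads H3K4me3, a mark of promoters.

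PANC-1 is an established human line from a pancreatic ductal carcinoma. The 3 libraries, 1 per group, came from cells labelled wild type with no treatment listed: a PHF13 ChIP, an EZH2 ChIP and an input without antibody. All were crosslinked with EGS, which links protein to protein, and then with paraformaldehyde and formaldehyde. The PHF13 antibody was a rabbit polyclonal made for the study. One line was used, and there were no biological replicates, so no difference below can be set against a spread between libraries and no p-value is given. Intervals are 95% intervals that cover counting error only, and not the choice of genes with earlier results known.

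The PHF13 list held 19039 peaks and the EZH2 list 21639. Fold enrichment is the coverage at the summit, the highest point of a peak, over the local background, with the same small constant added to both. Fragments and background printed below therefore do not divide exactly to the fold, and the constant lowers the fold most where the background is low. The q-value of a peak is given as −log10 q. At the median summit 21 PHF13 fragments or 25 EZH2 fragments were counted. Reads were pooled from many cells, so a site held in fewer cells and a site held less firmly in each cell cannot be told apart. Peak lists hold no RNA, so whether the 4 targets were transcribed was not measured.

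The first sequences shown are those of the PHF13 peaks upstream of the starts of 3 target genes, to show where the pathway's own motif is present and where it is not. The TEAD motif was searched as GGAATG on either strand and is in capitals. Bases are printed from GRCh37, 5′ to 3′ along the gene, and only where they lie upstream of the start.

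CCN2, chr6:132272513-132272713, minus strand: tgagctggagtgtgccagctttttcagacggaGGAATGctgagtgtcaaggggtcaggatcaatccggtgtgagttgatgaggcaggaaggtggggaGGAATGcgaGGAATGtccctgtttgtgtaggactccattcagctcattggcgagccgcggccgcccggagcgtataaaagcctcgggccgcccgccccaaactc
ANKRD1, chr10:92681027-92681310, minus strand: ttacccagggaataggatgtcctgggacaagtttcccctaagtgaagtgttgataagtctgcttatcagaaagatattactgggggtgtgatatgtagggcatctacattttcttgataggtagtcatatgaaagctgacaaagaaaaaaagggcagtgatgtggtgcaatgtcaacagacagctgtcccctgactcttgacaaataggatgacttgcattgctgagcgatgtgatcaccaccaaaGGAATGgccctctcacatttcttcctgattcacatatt
CCN1, chr1:86046362-86046443, plus strand: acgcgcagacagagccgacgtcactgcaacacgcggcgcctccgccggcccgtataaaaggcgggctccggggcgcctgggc

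The CCN2 stretch held 3 copies of GGAATG, the ANKRD1 stretch held 1 and the CCN1 stretch none. None of the 3 held an AP-1 site. A match of letters is a description of the sequence and not proof of a bound factor.

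The second set is every AP-1 site at a PHF13 summit within 100 kb of a member. The AP-1 site was searched as TGACTCA or TGAGTCA, which are reverse complements of each other, so that both strands were covered. Each line gives 41 bases of the plus strand with the site in capitals, and names the member and its distance in kb from the 5′ end of the gene to the summit, negative when upstream.

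YAP1 -99.2, chr11:101881983-101882023: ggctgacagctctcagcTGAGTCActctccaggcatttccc
WWTR1 195.6, chr3:149258898-149258938: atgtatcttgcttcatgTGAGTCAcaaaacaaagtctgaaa
WWTR1 154.9, chr3:149299682-149299722: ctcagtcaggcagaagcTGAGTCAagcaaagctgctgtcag
TEAD1 -92.1, chr11:12603784-12603824: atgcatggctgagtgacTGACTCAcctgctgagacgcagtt
TEAD1 -86.7, chr11:12609269-12609309: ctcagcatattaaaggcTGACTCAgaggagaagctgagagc
TEAD1 19.4, chr11:12715345-12715385: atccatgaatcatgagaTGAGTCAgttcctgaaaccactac
CCN2 87.2, chr6:132185282-132185322: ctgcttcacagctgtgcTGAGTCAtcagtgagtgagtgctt
AMOTL2 -52.0, chr3:134146353-134146393: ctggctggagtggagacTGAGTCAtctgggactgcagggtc

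PHF13 peaks lay near 7 of the 10 genes (70%, exact interval 34.8 to 93.3%), namely YAP1, WWTR1, TEAD1 and all 4 targets. Among all protein-coding genes the share was 31.2%. EZH2 peaks lay near 2 of the 10 (20%, 2.52 to 55.6%), YAP1 and WWTR1, against 30% of all genes. The PHF13 interval lay above the share of all genes, and the EZH2 interval included it. Both proteins had a peak near YAP1 and WWTR1, 2 of 10 genes against 12.6% of all. PHF13 without EZH2 was found near 5 of 10, against 18.6%. TEAD2, TEAD3 and TEAD4 had neither, 3 of 10 (30%, 6.67 to 65.2%), against 51.4% of all genes.

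The starts of the genes were compared next. A PHF13 peak came within 5 kb of a TSS in 6 members (60%, 26.2 to 87.8%), against 21% of all genes. The same 6 had one within 1 kb of a TSS, against 13.6%. With peaks of −log10 q of at least 3 alone, 4 members had one within 1 kb, the 4 targets, against 9.08% of all genes. YAP1 then had no PHF13 peak near at all, and WWTR1 none within 1 kb of a TSS. An EZH2 peak came within 5 kb of a TSS in YAP1 alone (10%, 0.253 to 44.5%), against 23.6% of all genes, and that TSS is an internal one. Within 1 kb of a TSS no member had EZH2 (0 of 10, which allows up to 30.8%), against 16.6%.

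**Figure D1:**
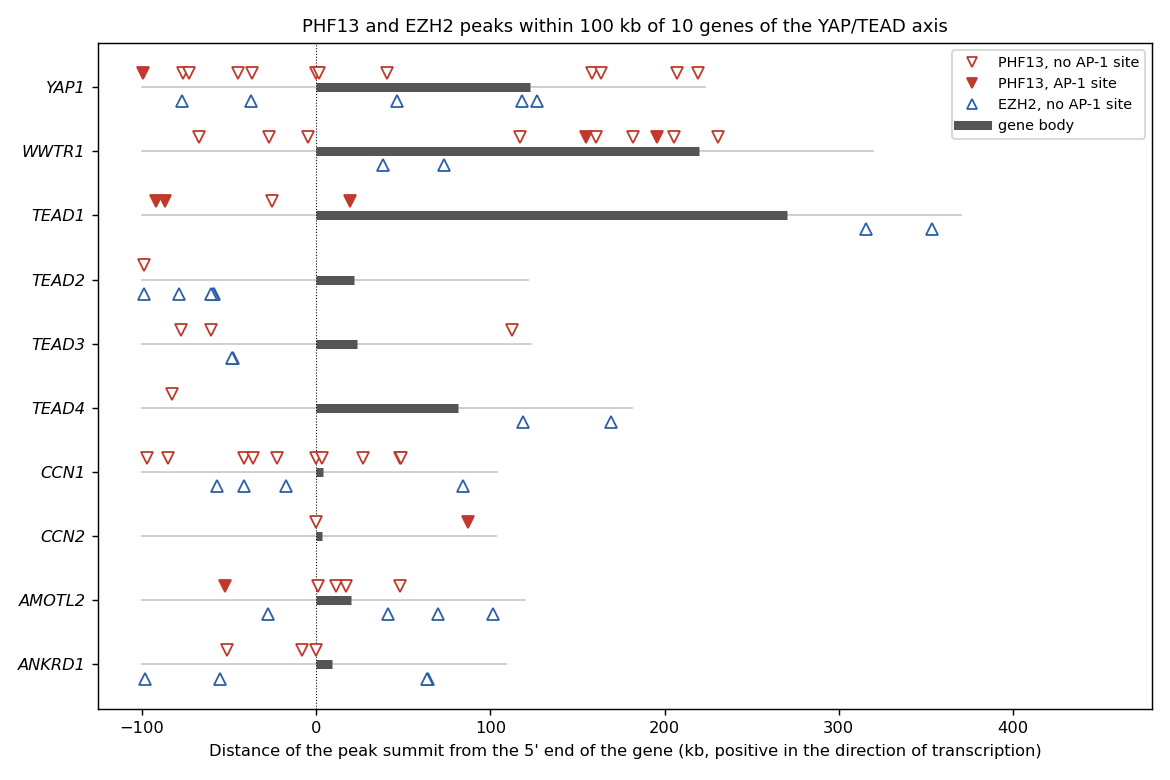
Positions of PHF13 peaks (red, above each line) and EZH2 peaks (blue, below) around the 10 genes; the x axis is the distance of the summit from the 5′ end of the gene in kb, thick bars are gene bodies, thin lines the 100 kb on each side, and filled markers have an AP-1 site. Red markers stand at or close to the 5′ end of YAP1, WWTR1 (4.5 kb upstream), CCN1, CCN2, AMOTL2 and ANKRD1, and no blue marker does.

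Long genes catch more peaks, so the members were also read against genes of their own length. ANKRD1, CCN1 and CCN2 belong to the shortest quartile of genes (39 to 9496 bp), in which PHF13 was near 14.5% and EZH2 near 18.3%. AMOTL2, TEAD2 and TEAD3 fall in the second quartile, where the shares were 20.6% and 20.7%. YAP1, WWTR1, TEAD1 and TEAD4 are in the longest quartile, where PHF13 was near 57.5% and EZH2 near 52.0%. The 3 short targets all carried PHF13, and of the 4 long genes 3 carried it.

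Of the co-activators, YAP1 (chr11:101981178-102104155) had 3 PHF13 peaks near, all of them weak. The peak over its TSS, chr11:101981155-101981524, was 2.44-fold enriched (1.59 to 3.61), with 23 fragments over a background of 8.83 and −log10 q of 1.93. Only 7.79% of PHF13 peaks had a −log10 q as low or lower. A second lay in an intron, 1.6 kb from the 5′ end of the gene, with 2.44-fold enrichment and −log10 q of 1.82, and the third was 40.7 kb into the gene at 3.13-fold (1.95 to 4.80) and −log10 q of 2.76. The sequence at the start was that of a CpG island promoter: the 500 bp around the summit were 69.8% G or C, with 1.03 of the CpG pairs that base composition predicts.

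The strongest PHF13 peak around YAP1 was distal. It lay 99.2 kb upstream and reached 5.34-fold (3.83 to 7.25), 39 fragments over 6.49, and −log10 q of 14.0, higher than 92.9% of the list. Its summit held both an AP-1 site and a TEAD motif, 24 and 52.5 bp from the summit. The closest protein-coding TSS was that of CEP126, at 32.8 kb, so proximity alone does not tie this site to YAP1. In all, 12 PHF13 peaks lay within 100 kb of YAP1, the most of any member, including 1 over the TSS of BIRC3, an inhibitor of apoptosis and the neighbour of YAP1 on chromosome 11.

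EZH2 had 2 peaks near YAP1, both in introns. One, chr11:102027355-102027522, had 3.14-fold enrichment (1.87 to 4.98) and −log10 q of 2.55. The other, chr11:102099519-102099740, lay 1.8 kb from an internal TSS at 3.45-fold (2.12 to 5.35) and −log10 q of 3.52. Neither overlapped a PHF13 peak.

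WWTR1 (chr3:149235022-149454501, minus strand) had 7 PHF13 peaks near, the most of the 10 genes. Their fold enrichment ran from 2.51 to 4.55. The highest, chr3:149272709-149272991, was an intronic peak 12.5 kb from the closest TSS, with 37 fragments over 7.36, 4.55-fold enrichment (3.24 to 6.22) and −log10 q of 10.8. None of the 7 lay over the 5′ end of the gene. The closest to it was 4.5 kb upstream, inside COMMD2, in sequence whose median 24-mer occurs 590 times in the genome, so its placement is uncertain.

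The WWTR1 peaks with an AP-1 site at the summit were both intronic. The peak at chr3:149258806-149258993 lay over an internal TSS and held an AP-1 site and a TEAD motif 33 and 42.5 bp from its summit. It was weak, at 2.72-fold (1.71 to 4.14) and −log10 q of 2.14, and its 500 bp were only 33.2% G or C. The other, chr3:149299530-149300012, held 3 AP-1 sites within 222 bp, a number reached by 53 of the 19039 PHF13 peaks (0.278%). It is printed here because no other member peak held as many.

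WWTR1, chr3:149299689-149299910, plus strand, AP-1 sites in capitals: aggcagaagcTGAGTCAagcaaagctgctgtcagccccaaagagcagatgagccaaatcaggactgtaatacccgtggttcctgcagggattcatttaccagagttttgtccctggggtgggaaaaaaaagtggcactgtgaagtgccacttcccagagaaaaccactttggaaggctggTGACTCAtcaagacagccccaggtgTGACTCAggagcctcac

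That peak was itself below the list's medians in enrichment and −log10 q, at 2.84-fold (1.89 to 4.10) with 26 fragments and −log10 q of 3.11. The medians were 3.41-fold, 21 fragments and 3.57. EZH2 had 2 peaks in introns of WWTR1, 38.6 and 73.3 kb from the 5′ end, of 3.13-fold (1.87 to 4.97) and 3.32-fold (2.01 to 5.21). They were called from 16 and 17 fragments, with a −log10 q at or above that of 20.4 and 33.0% of the EZH2 list.

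**Figure D2:**
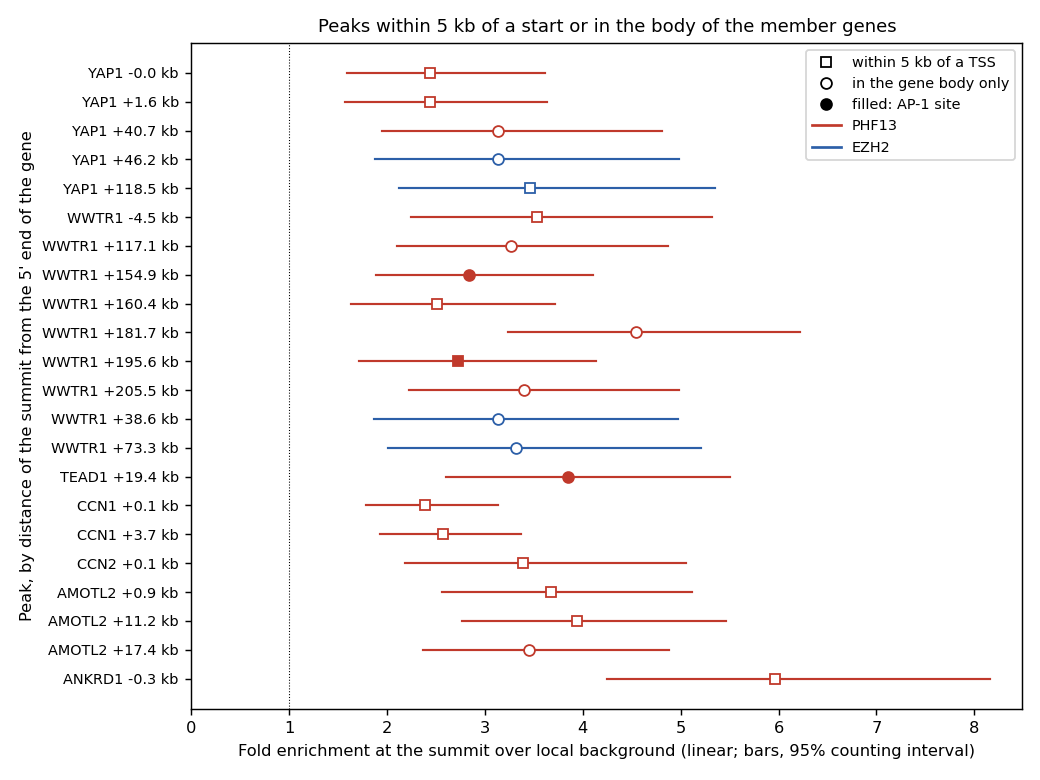
Fold enrichment at the summit (x axis, linear, with exact 95% counting intervals) of the 18 PHF13 (red) and 4 EZH2 (blue) peaks near the members, 1 row per peak with its distance from the 5′ end; squares lie within 5 kb of a TSS, circles in the gene body only, and filled symbols have an AP-1 site. ANKRD1 is farthest to the right at 5.96-fold, and the peak at the start of CCN1 is the lowest at 2.39-fold.

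The TEAD genes encode the DNA-binding partners, and of these only TEAD1 had a PHF13 peak near. This was 1 of 4 (25%, 0.631 to 80.6%), an interval that includes the 31.2% of all genes. The TEAD1 peak was intronic, chr11:12715072-12715577, 19.4 kb into the gene, with 28 fragments over 6.54, 3.85-fold enrichment (2.60 to 5.50) and −log10 q of 6.25. An AP-1 site lay 30 bp from the summit, and the whole peak held 2. A pair of distal peaks upstream of TEAD1 also had an AP-1 site at the summit, at 92.1 kb with 5.31-fold (3.56 to 7.63) and −log10 q of 9.62, and at 86.7 kb with 2.64-fold (1.55 to 4.24) and −log10 q of 1.55. For both, TEAD1 was the gene with the closest protein-coding TSS. Thus 3 of the 4 PHF13 peaks around TEAD1 held the site, against 11.2% of the whole list, and the fourth lay in multi-copy sequence. The count is small, and the peak at 86.7 kb had a −log10 q at or above that of only 1.18% of the list.

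TEAD2, TEAD3 and TEAD4 had distal peaks alone. The single PHF13 peak around TEAD4 covered the TSS of FOXM1, a regulator of mitotic genes 82.5 kb away, at 4.66-fold (3.05 to 6.84) and −log10 q of 7.16. Around TEAD3 there were 3, of which the closest was 60.2 kb upstream at 2.83-fold (1.71 to 4.43) and −log10 q of 2.02. The 1 PHF13 peak around TEAD2 lay 98.9 kb upstream in multi-copy sequence, at 3.83-fold (2.38 to 5.87), and overlapped an EZH2 peak of 4.80-fold (3.17 to 6.99).

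EZH2 peaks around the TEAD genes were likewise distal, 2 each for TEAD1, TEAD3 and TEAD4 and 5 for TEAD2. Those of TEAD2 included the EZH2 peak with the highest −log10 q around the members, 17.4, at chr19:49944037-49944722, with 59 fragments and 4.42-fold enrichment (3.38 to 5.68). It stood 62 bp from the TSS of SLC17A7, a glutamate transporter of neurons. A further 3 of them clustered 316 to 2058 bp from the TSS of PTH2, which encodes a neuropeptide. For TEAD4, the closer of the EZH2 peaks was 283 bp from a TSS of TSPAN9.

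The target genes shared PHF13 at their starts. CCN1 and CCN2 encode secreted matrix proteins, AMOTL2 an angiomotin that binds YAP1 and holds it back, and ANKRD1 a nuclear ankyrin-repeat protein. PHF13 was within 1 kb of a TSS in all of them (4 of 4, exact interval 39.8 to 100%), against 13.6% of all genes. None had an EZH2 peak near (0 of 4, which allows up to 60.2%), and with 4 genes this cannot be told from the 30% of all genes.

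ANKRD1 (chr10:92671853-92680844, minus strand) had the highest PHF13 peak near a target. It ended 183 bp upstream of its only annotated TSS, with 37 fragments over 5.37, 5.96-fold enrichment (4.25 to 8.16) and −log10 q of 15.1, above 93.6% of the list. Its interval lay above those of both CCN1 peaks and of both YAP1 peaks near the start, and overlapped those of CCN2 and AMOTL2. In base composition it stood apart from the other targets: 47.0% G or C, with a CpG ratio of 0.109. A further pair of PHF13 peaks stood upstream, at 8.2 kb (3.91-fold, 2.51 to 5.83) and 50.9 kb (3.95-fold, 2.48 to 5.99), and the former held a TEAD motif 18.5 bp from the summit.

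CCN2 (chr6:132269316-132272512, minus strand) had a peak across its single TSS. It had 22 fragments over 5.79, 3.39-fold enrichment (2.18 to 5.05) and −log10 q of 3.78, above 52.8% of the list. The summit lay 143 bp inside the gene, so the 3 TEAD motifs printed above, which lie upstream of the start, fell in the peak but outside the 200 bp at the summit. At least 3 copies in 1 peak were found in 207 PHF13 peaks (1.09%). The only other PHF13 peak around CCN2 was in ENPP1, 87.2 kb downstream, at 4.40-fold (2.86 to 6.52) and −log10 q of 6.29, with an AP-1 site 5 bp from the summit. CCN2 was the 1 member without an EZH2 peak within 100 kb.

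CCN1 (chr1:86046444-86050272, plus strand) had 10 PHF13 peaks within 100 kb. All distal ones upstream of CCN1 lay inside the neighbouring gene DDAH1, which also had the closest protein-coding TSS. The peak over the TSS of CCN1, chr1:86046362-86046620, had 50 fragments over a high background of 20.4, which gives an enrichment of 2.39-fold (1.78 to 3.13) and a −log10 q of 4.46. A second lay at the 3′ end of the gene with 2.57-fold (1.93 to 3.37) and −log10 q of 5.60. The highest −log10 q of all 51 PHF13 peaks around the members, 29.9, belonged to chr1:86072821-86073475, which lay 25.7 kb from the closest TSS of CCN1 and reached 84 fragments, 5.23-fold (4.18 to 6.46). The 200 bp at its summit are shown as the site with the highest −log10 q, with the TEAD motif in capitals. The whole peak held 2 TEAD motifs and 1 AP-1 site, the latter outside these 200 bp.

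CCN1, chr1:86072993-86073192, plus strand: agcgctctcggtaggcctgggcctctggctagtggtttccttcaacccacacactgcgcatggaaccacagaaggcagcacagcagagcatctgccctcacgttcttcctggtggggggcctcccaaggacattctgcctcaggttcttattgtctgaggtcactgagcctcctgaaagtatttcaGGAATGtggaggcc

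The background was high under all 10 CCN1 peaks, 10.2 to 20.4 fragments with a median of 14.0, which is above the background of 94.4% of PHF13 peaks. The floor of the list is 4.23. The part of this background in the peaks called there was not tested. Among the EZH2 peaks around CCN1, the median background was 9.88, above 67.3% of that list. The peak 41.3 kb upstream of CCN1 was occupied in both lists, with 35 fragments over 14.0 for PHF13 (fold interval 1.69 to 3.32) and 38 over 13.1 for EZH2 (1.98 to 3.77), and was the only shared peak of the members in single-copy sequence.

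**Figure D3:**
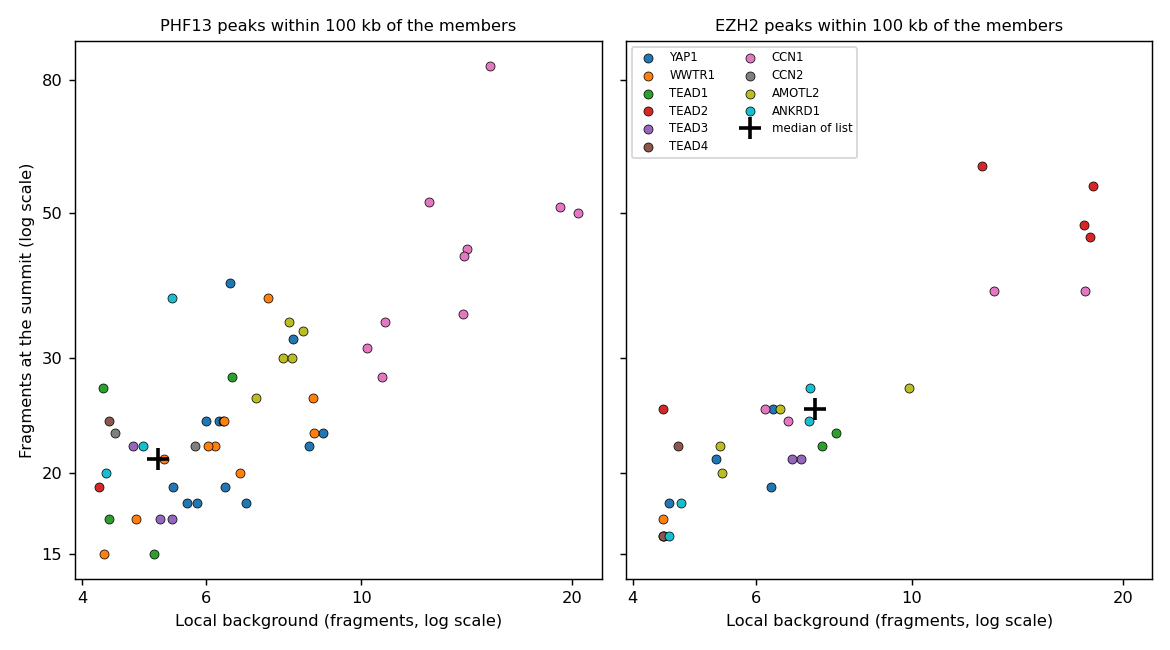
Fragments at the summit (y axis, log scale) against local background in fragments (x axis, log scale) for the 51 PHF13 and 30 EZH2 peaks within 100 kb of the members, coloured by gene, with the median of each list as a cross. The 10 CCN1 peaks of PHF13 lie to the right at backgrounds of 10.2 to 20.4, and 4 of the 5 EZH2 peaks around TEAD2 lie at 12.6 to 18.1.

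AMOTL2 (chr3:134074189-134094321, minus strand) had 3 PHF13 peaks near, in narrow range. The one over a TSS, chr3:134093217-134093561, had 33 fragments over 8.27, 3.67-fold enrichment (2.56 to 5.11) and −log10 q of 6.92. The other two were in introns, at 3.94-fold (2.77 to 5.47) with −log10 q of 8.05, and at 3.45-fold (2.37 to 4.88) with −log10 q of 5.57. The intervals of the 3 overlapped throughout, so their order is within counting error. The first and the second held a TEAD motif within 100 bp of the summit. A distal peak 52.0 kb upstream held an AP-1 site 5 bp from its summit at 3.34-fold (2.22 to 4.84), and AMOTL2 was the gene with the closest protein-coding TSS.

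The starts of YAP1, CCN1, CCN2 and AMOTL2 shared their base composition, with 69.4 to 74.0% G or C and CpG ratios of 0.915 to 1.03 in the 500 bp around the summit. The 8 peaks with an AP-1 site were lower in both than these starts, at 33.2 to 56.0% and 0.0463 to 0.382. A low G or C content was not particular to them. Its median was 45.4% with the site, 47.2% in the member peaks without it and 46% in the whole PHF13 list. The PHF13 peaks at these 4 starts and upstream of ANKRD1 held no AP-1 site at the summit.

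Over the full 100 kb, every member had a PHF13 peak (10 of 10, against 75.6% of all genes) and 9 had an EZH2 peak (against 77.1%), shares that are near those of any gene. Peak density separated the members more. It was highest for CCN1, with 4.91 PHF13 peaks per 100 kb of window, above 99.2% of genes, with the peaks inside DDAH1 counted. YAP1 followed with 3.72 (98.6%), WWTR1 with 2.38 and AMOTL2 with 2.27 (94.1%). The same 4 genes had the highest local background under their PHF13 peaks, above 94.4% of the list for CCN1, 85.9% for AMOTL2, 73.8% for YAP1 and 72.6% for WWTR1, and at most 51.1% for the other 6. Its part in the densities was not tested. TEAD2 and TEAD4 were lowest in density at 0.451 (37.6%) and 0.355 (29.0%). The median over the members was 1.39, against 0.598 over all genes. For EZH2 it was 1.22 against 0.808, with TEAD2 highest at 2.25 and CCN2 at 0. These densities rest on counts of 0 to 12 peaks per gene, so neighbours in the order differ by few peaks.

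Of the 51 PHF13 peaks within 100 kb, 18 were near a member, 16 of them in its gene body, and 33 were distal. Another gene had the closest protein-coding TSS for 22 of the 51, and 5 distal peaks lay within 5 kb of such a TSS. Of the 30 EZH2 peaks, 4 were near, and 21 were closest to another gene. Distal EZH2 peaks stood within 5 kb of another protein-coding TSS in 8 cases, at PTH2, SLC17A7, TSPAN9, HTR7 and a gene without a symbol. PHF13 and EZH2 peaks overlapped at 2 sites, TEAD2 and CCN1, against 11.7% of the whole PHF13 list.

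In height the member peaks were like the lists they came from. Median PHF13 enrichment was 3.34 against 3.41 in the whole list, and −log10 q reached at least 5 in 35.3% against 30.4%. For EZH2 the medians were 3.14 and 3.13, and the shares 33.3% and 35.8%. The 4 EZH2 peaks near YAP1 and WWTR1 had −log10 q of at most 3.52, under the list's median of 3.99.

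An AP-1 site lay within the 200 bp at the summit of 8 of the 51 PHF13 peaks (15.7%, 7.02 to 28.6%), against 11.2% of the whole list. The interval included the share of the list. In windows of the same width 1000 bp to each side of the member peaks, 1 of 102 held the site (0.980%, 0.0248 to 5.34%). The site was thus rarer at that distance than at the summits. In 400 bp at the summit 11 member peaks held it (against 15.0% of the list), and 10 held it anywhere in the peak (against 11.8%). All 8 peaks with the site in 200 bp were among the 38 single-copy peaks (21.1%, 9.55 to 37.3%), for which the share of the list was 15.4%. Within 100 kb, YAP1, WWTR1, TEAD1, CCN2 and AMOTL2 had a PHF13 peak with an AP-1 site in the 200 bp at the summit. These were 5 members (50%, 18.7 to 81.3%), against 21.2% of all genes. The interval included that share, and the genes were not matched for window size. Their windows spanned 323 kb for YAP1, 419 for WWTR1 and 470 for TEAD1, against 203 for CCN2 and 220 for AMOTL2.

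EZH2 summits held no AP-1 site around the members (0 of 30, which allows up to 11.6%), and 2.31% of the whole EZH2 list did. At this number of peaks a share like that of the list could not have been told from 0. In the flanking windows 2 of 60 held it (3.33%).

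The TEAD motif was at the summit of 13 of the 51 PHF13 peaks (25.5%, 14.3 to 39.6%), against 14.7% of the list and 11 of 102 flanking windows (10.8%, 5.51 to 18.5%). YAP1 had 4 such peaks, CCN1 3, and WWTR1, AMOTL2 and ANKRD1 2 each, while the peaks around the TEAD genes had none. Around the members 2 of 30 EZH2 summits held it (6.67%, 0.818 to 22.1%), against 11.3% of the list and 8 of 60 flanking windows (13.3%). AP-1 and TEAD motifs occurred together at 2 PHF13 summits, those of YAP1 and WWTR1 described above (3.92%, against 2.29% of the list). A motif of 6 letters occurs often by sequence alone, as the flanking windows show.

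Promoters of the members were compared in the RefSeq promoter table (GRCh38.p14, 250 bp before to 50 bp after each start), which matched 7 of the 10. The TEAD motif was in 4 of the 7, with 3 copies in CCN2, 2 in ANKRD1 and 1 each in AMOTL2 and YAP1. WWTR1, TEAD2 and TEAD3 had none. Among 27305 gene symbols 16.7% had the motif in a promoter, and 45 (0.165%) had at least 3 copies. No promoter of the 7 held an AP-1 site, against 6.05% of symbols.

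The wider pathway was read through 30 Hippo genes and 18 other YAP target genes, with LATS2, PTPN14 and NUAK2 in both. PHF13 peaks lay near 11 of the 18 targets (61.1%, 35.7 to 82.7%) and within 5 kb of a TSS in 9 (50%, 26.0 to 74.0%). EZH2 was near 7 (38.9%, 17.3 to 64.3%). The PHF13 interval lay above the 31.2% of all genes, and the EZH2 interval included the 30%. These genes were not matched for length. In the longest quartile of genes PHF13 was near 57.5% and EZH2 near 52.0%, shares that lie inside both intervals. The part of gene length was not tested. The highest PHF13 peak of the list was in TGFB2, the gene of a TGFβ ligand, at 8.45-fold (6.75 to 10.4) with −log10 q of 45.7 and an AP-1 site at the summit. CRIM1 (4.76-fold), RBMS3 (5.91-fold), MYOF (4.84-fold), ASAP1 (4.25-fold) and AXL (4.27-fold) followed by −log10 q, and of these RBMS3, MYOF and AXL also held an AP-1 site. These peaks were picked for a high −log10 q. The site was at 11.2% of all PHF13 summits, and at 19.6% of those with −log10 q of at least 5. The highest EZH2 peak was at the start of FOXF2, a forkhead factor, at 4.10-fold (3.24 to 5.11) with −log10 q of 20.8. After it by −log10 q came IGFBP3 (3.60-fold), PTPN14 (4.06-fold), ASAP1 (3.69-fold), F3 (3.23-fold) and RBMS3 (3.14-fold).

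Among the Hippo genes, PHF13 was near 14 of 30 (46.7%, 28.3 to 65.7%), an interval that includes the 31.2% of all genes. It was within 5 kb of a TSS in 7 (23.3%, 9.93 to 42.3%), close to the 21% of all genes. EZH2 was near 8 (26.7%, 12.3 to 45.9%), against 30%. The kinase gene STK4 had the highest PHF13 peak at 6.41-fold (4.58 to 8.74), and AMOTL1 (4.34-fold), LIMD1 (4.55-fold), PTPN14 (3.96-fold), STK3 (4.02-fold) and VGLL4 (4.07-fold) came next by −log10 q. By the same measure EZH2 ranked highest over the starts of DCHS1, an atypical cadherin (3.48-fold, 2.88 to 4.17), AMOTL1 (3.87-fold, 3.10 to 4.77), VGLL2 (2.86-fold, 2.31 to 3.51) and VGLL3 (4.34-fold, 3.24 to 5.69), with −log10 q of 14.4 to 25.1. STK3 (2.99-fold) and PTPN14 (4.06-fold) completed the first 6. AMOTL1 thus differed from its paralog AMOTL2, which had no EZH2 peak near. The VGLL genes encode cofactors that bind TEAD in place of YAP1.

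**Figure D4:**
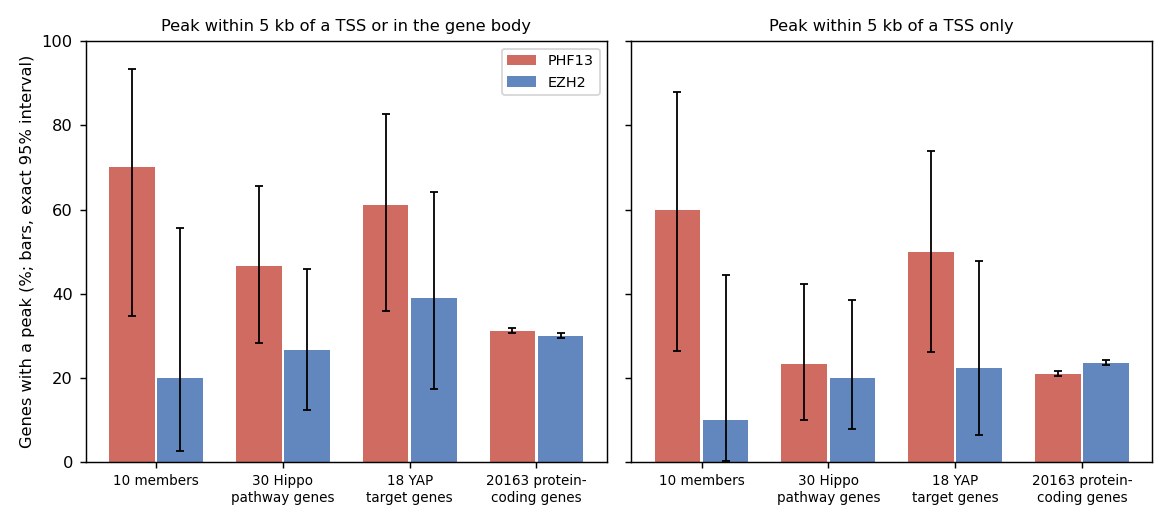
Share of genes (y axis, %) with a PHF13 (red) or EZH2 (blue) peak near the gene (left) or within 5 kb of a TSS (right) in the 10 members, 30 Hippo genes, 18 other YAP target genes and all 20163 protein-coding genes; error bars are exact 95% intervals. At starts PHF13 reached 60% of the members and 50% of the other targets, against 23.3% of the Hippo genes and 21% of all genes.

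By its counts within 100 kb (12 PHF13 peaks, 1 with an AP-1 site, and 5 EZH2 peaks), the profile of YAP1 was not unique. Of 18846 genes on other chromosomes, 2 had the same counts. They were ZNF565 and ZNF146, which are neighbours on chromosome 19 and share most of their window. CCDC91 on chromosome 12 was next, with 11 PHF13 peaks, none with an AP-1 site, and 5 EZH2 peaks.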

How the data were processed

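PHF13 and EZH2 ChIP-seq peak lists of PANC-1 cells (1 library each, called against 1 input) were used as deposited. According to the methods and the labels, the authors trimmed reads with Trim Galore 0.4.1, aligned them to hg19 with Bowtie2 2.4.1, used Picard to drop duplicates and MACS2 2.2.7.1 to call peaks. Fold enrichment at the summit is a ratio the authors deposited, read here as taken after 1 was added to both coverage and background. The p and q were deposited on the −log10 scale, and the deposited score is 10 times the −log10 q as a whole number. The weakest deposited −log10 q is 1.30 in the PHF13 list, looser than the limit the methods state. EZH2 peaks are described there as broad, but the deposited list is in narrow-peak format. Input coverage was not analysed here, and total read depth is unknown from the lists.

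Fragments and background at each summit were solved from fold and p (100% of peaks, relative error within 0.0001), and the interval of a fold takes the background as fixed. Intervals are exact (Poisson for folds, Clopper-Pearson for shares). Positions are 1-based on GRCh37. Single-copy means that the median 24-mer of the 100 bp at the summit occurs once in the genome. A share of a peak list that a value is said to lie above counts equal values as well. Motifs were sought in 200 bp at the summit. Peaks named were, for each member and antibody, those near it with the highest −log10 q or else the closest, and those a motif or comparison turns on, the latter chosen after their values were seen. From each pathway list the 6 genes with the highest −log10 q of a near peak were named. The members and the lists were chosen with earlier results of these data known. Scripts ran in Python 3.11.15 with numpy 2.4.6, pandas 2.3.3, scipy 1.17.1 and pysam 0.24.0 and were tested on simulated data. Distance limits, q limits, motif windows and copy number were varied.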

Additional observations from a re-analysis of the deposited data

How the results depend on the processing

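Each count was recomputed under other settings (52 in all), and 35 stayed within 1.5 times the value reported. PHF13 was near 5 to 7 members under every setting tried, the 5 at −log10 q of at least 5, where 11.0% of all genes had a peak. The 6 members with PHF13 within 5 kb of a TSS became 5 at −log10 q of at least 3 and 3 at 5, and the 6 within 1 kb became 4 and 2 (9.08 and 3.98% of all genes); these limits at the starts were chosen after seeing the data. The 51 PHF13 peaks within 100 kb became 33 within 50 kb and 18 at −log10 q of at least 5, and the 8 with an AP-1 site then became 4 (22.2%, against 19.6% of the list at that limit). The 13 with a TEAD motif became 7 in 100 bp and 4 with the longer motif GGAATGT. EZH2 was near 2 members, but near 0 at −log10 q of at least 5, 1 by TSS alone and 0 by the 5′ end of the gene alone; the last pair of settings was also chosen after seeing the data. The 30 EZH2 peaks became 15 within 50 kb, 19 at −log10 q of at least 3 and 10 at 5. EZH2 peaks with an AP-1 site rose from 0 to 1 in 400 bp or with any middle base, and the 2 with a TEAD motif became 1 in 100 bp and 0 with the longer motif. Each shift follows from fewer or more peaks or letters being admitted. Depth limits each peak to its printed counting interval. No paired analysis was possible because each group has 1 library.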
